A study of Homo sapiens with 6 samples.

Results

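The 5 genes described here are AGBL5, FGF13, NAA15, HMGB2 and MCU, out of 5068 genes that held an hnRNP A1 cluster in any of 6 PAR-CLIP libraries (cross-linking and immunoprecipitation with a photoactivatable nucleoside). They were chosen by the clusters themselves. AGBL5, FGF13 and NAA15 carried clusters in both A1dm libraries and in neither A1 library, and HMGB2 and MCU each carried 1 position with this pattern. The libraries came from HEK293T cells, a human embryonic kidney line, transiently transfected with a plasmid for myc-tagged hnRNP A1, treated with 4-thiouridine, cross-linked with ultraviolet light and precipitated with a rabbit polyclonal antibody against the tag. A1dm was the monomeric band of the variant with the R75D and R88D substitutions. A1-HMW was the slower band of the WT protein, which the paper describes as possibly a dimer. A1 was the monomeric WT band, and each group had 2 libraries. The protein came from a plasmid, and no removal of the cells' own hnRNP A1 is described. The deposited lists held 232 and 596 clusters in A1dm, 671 and 865 in A1-HMW, and 5805 and 8100 in A1, on the human build hg19. These lists gave positions and no read numbers, and the read counts that the study gives for the peaks of another caller were not used here. Every cluster therefore counted alike, and a position without a cluster may have lacked reads. The libraries of a group are replicate experiments, and with 2 libraries a group the smallest p of an exact two-sided permutation is 0.33, so the values are a description without tests.

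Heterogeneous nuclear ribonucleoprotein A1 is an abundant nuclear RNA binding protein that coats pre-mRNA and takes part in splicing, export and translation. Its N-terminal UP1 domain holds tandem RNA recognition motifs, and the R75D and R88D substitutions remove salt bridges between them. In PAR-CLIP the cells build 4-thiouridine into RNA, the cross-linked uridine is read as C in the cDNA, and a cluster is a stretch of overlapping reads with such T-to-C substitutions. The 5 genes have unrelated functions. AGBL5 encodes a carboxypeptidase that trims glutamate from tubulin. FGF13 is a fibroblast growth factor homologous factor that stays inside the cell and binds voltage-gated sodium channels. NAA15 is the auxiliary subunit that holds the N-terminal acetyltransferase NatA on the ribosome. HMGB2 is a chromatin protein with a pair of DNA-bending HMG boxes and an acidic tail, and MCU is the pore subunit of the mitochondrial calcium uniporter.

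The 5 genes held 6 sites with an A1dm cluster and no A1 cluster. Their reference sequences are shown because the sites fall into purine-rich and mixed ones. Sequence was not a criterion of the choice, but the lack of A1 clusters was, and A1 clusters were mostly purine-rich. Each is written on the strand of the gene, from the most upstream to the most downstream base covered in any library, and capitals mark the longest uninterrupted run of A and G.
AGBL5 site, chr2:27273732-27273754, plus strand: cGAAGGActtcgtctgtaatttt
FGF13 site, chrX:138218039-138218058, minus strand: acatgatGAAGGAcgtgata
NAA15 site 1, chr4:140222737-140222757, plus strand: aagtGAGAAAGGAAAAAAGAc
NAA15 site 2, chr4:140291482-140291501, plus strand: AGAAAAAGAAGAAGGAtgat
HMGB2 site 1, chr4:174254243-174254266, minus strand: gatAAGAAGGGGAAGAAAAAGGAc
MCU site 1, chr10:74594309-74594340, plus strand: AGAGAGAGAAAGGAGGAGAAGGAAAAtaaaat

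The sites that WT hnRNP A1 clusters occupied elsewhere in these genes are shown for comparison, with the same use of capitals. HMGB2 site 2 and MCU site 2 were covered in both A1 libraries, and MCU site 3 in 1 A1-HMW library.
HMGB2 site 2, chr4:174253267-174253299, minus strand: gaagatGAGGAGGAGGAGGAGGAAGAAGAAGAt
MCU site 2, chr10:74468083-74468107, plus strand: ggagagttGAGAGAAGGAAGAAAGc
MCU site 3, chr10:74566971-74566991, plus strand: gagtGAAGGGGGAAAGAAGAt

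Across the 6 libraries the 5 genes held 18 clusters, 11 in A1dm, 3 in A1-HMW and 4 in A1. AGBL5 had 1 cluster in each A1dm library, 1 in A1-HMW replicate 1, and 0 in A1-HMW replicate 2 and in both A1 libraries. FGF13 had 1 in each A1dm library, 0 in A1-HMW replicate 1, 1 in A1-HMW replicate 2, and 0 in both A1 libraries. NAA15 had 1 in each A1dm library and 0 in the other 4. The A1dm libraries and the A1 libraries did not overlap for these 3 genes, as the choice of the genes requires. HMGB2 had 1 and 2 clusters in A1dm, 0 and 0 in A1-HMW, and 1 and 1 in A1. MCU had 1 and 1 in A1dm, 1 and 0 in A1-HMW, and 1 and 1 in A1. For HMGB2 and MCU the pattern therefore belonged to a position and not to the gene. No cluster lay on the opposite strand of any of the 5 genes. The RNA level of these genes was not measured here, so the number of clusters cannot be set against the amount of each RNA.

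**Figure D1:**
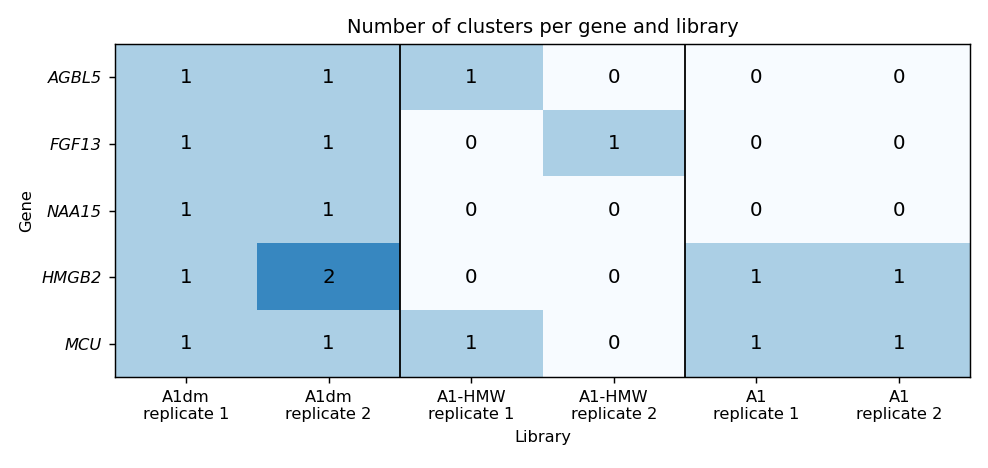
Number of clusters (cell label and shade) in each of the 5 genes (vertical axis) for each of the 6 libraries (horizontal axis). Each gene has at least 1 cluster in both A1dm libraries, while A1 clusters are present only in HMGB2 and MCU.

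Genes with clusters in both A1dm libraries numbered 42, and 4 of them (9.52%) had no A1 cluster. This contrast chose the genes, so the share is given only as the number they came from. Beside AGBL5, FGF13 and NAA15 the other was the long noncoding RNA gene ENSG00000236469, with 1 cluster in each A1dm library and 0 in the other 4. Just outside that limit were 4 genes with a single A1 cluster. ENSG00000259001, a long noncoding RNA gene, had 1 and 4 clusters in A1dm, none in A1-HMW and 1 in A1 replicate 2. ATF3, a stress-induced transcription factor, had 1 and 1 in A1dm, none in A1-HMW and 1 in A1 replicate 1. The U2 small nuclear RNA copy RNU2-70P, whose reads can belong to a near-identical copy, had the same numbers as ATF3 in each library. RWDD2A had 1 and 1 in A1dm, 1 and 1 in A1-HMW, and 1 in A1 replicate 2. The most frequent case was a gene with 2 A1 clusters, as in HMGB2, which held for 17 of the 42.

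Positions recurred between the A1dm libraries in 4 of the 5 genes, which for HMGB2 and MCU was a condition of their choice. Of the 42 genes with clusters in both A1dm libraries, 61.9% held a position covered in both. The HMGB2 site 1 cluster ran from the same first to the same last base in both A1dm libraries and was 24 nucleotides long. At MCU site 1 the 5′ end was the same, and the cluster was 27 nucleotides long in A1dm replicate 1 and 32 in replicate 2. In FGF13 the 3′ end was the same in both A1dm libraries and in A1-HMW replicate 2, with lengths of 16 and 20 nucleotides in A1dm and 19 in A1-HMW. In AGBL5 the ends differed by 1 nucleotide between the A1dm libraries, with 22 nucleotides in each, and the A1-HMW replicate 1 cluster of 20 nucleotides shared its first base with A1dm replicate 1. In NAA15 no position recurred. The cluster of A1dm replicate 1 and that of A1dm replicate 2 lay 68724 nucleotides apart, so NAA15 was a gene with A1dm clusters in both libraries but without a recurrent site. Among all 34 regions covered in both A1dm libraries, 13 had identical start and end and 28 had at least 1 identical end. Of these 34 regions, 9 (26.5%) had no A1 cluster, among them the sites in AGBL5, FGF13, HMGB2 and MCU, and this too was the contrast of the choice.

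**Figure D2:**
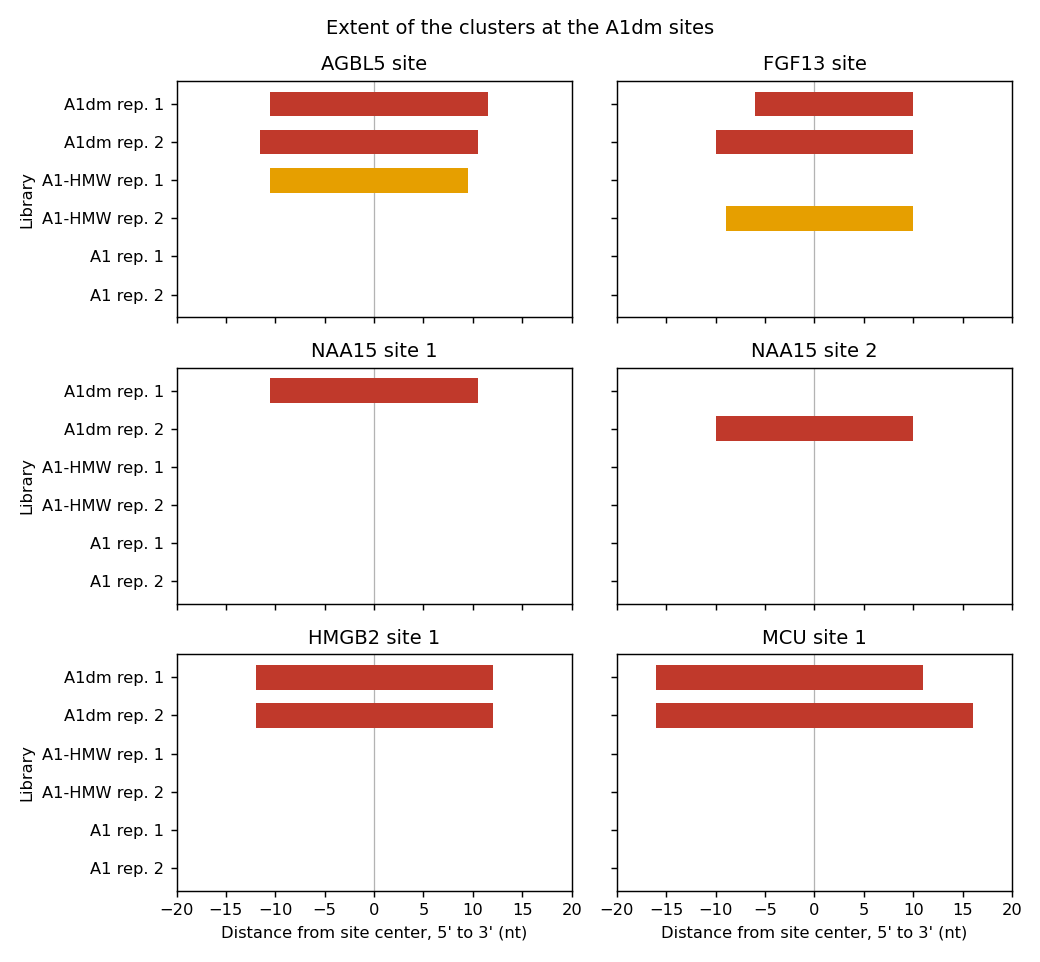
Extent of each cluster (bars, in nucleotides from the center of the site, 5′ to 3′) in each library at the 6 sites with A1dm and no A1 clusters. The HMGB2 bars coincide, the 3 FGF13 bars end at the same base, and the NAA15 sites have 1 bar each.

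The WT protein was found at the AGBL5 and FGF13 sites in its slower band. An A1-HMW cluster overlapped 2 of the 6 sites, each in 1 of the 2 A1-HMW libraries, and the sites in NAA15, HMGB2 and MCU had none. Of all 794 A1dm regions of either library, 20.9% overlapped an A1-HMW cluster. This share was 55.9% for the 34 regions covered in both A1dm libraries, and 33.3% (3 of 9) for those among them without an A1 cluster. The AGBL5 and FGF13 sites are themselves among those 3, so the last share is not an independent comparison. The NAA15 sites are not among the 9, since neither was covered in both A1dm libraries. Without A1-HMW replicate 1 the AGBL5 site would have no WT cluster, and without A1-HMW replicate 2 the FGF13 site would have none. These positions were thus not limited to the variant, although neither had a cluster in the monomeric A1 libraries.

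The AGBL5 site differed most from the other sites in its sequence. Only 43.5% of its 23 bases were A or G, 9 were T, and the longest purine run was 6 bases. GENCODE has the site in intron 1 of the noncanonical transcript AGBL5-203, 8316 nucleotides after the exon before it and 537 before the next, and 782 nucleotides upstream of the start of the canonical AGBL5 transcript. The deposited annotation calls it promoter. RefSeq, on the build GRCh38, lists the transfer RNA genes TRY-GTA2-1 and TRA-AGC8-1 inside AGBL5, and their positions were not carried over to hg19. Transfer RNA genes hold an internal promoter element, the B box, whose core reads GGTTCGA. This motif ended 8 nucleotides before the AGBL5 site. The stretch is shown with the motif in capitals and ends with the last base of the site.
AGBL5 site with the bases before it, chr2:27273702-27273754, plus strand: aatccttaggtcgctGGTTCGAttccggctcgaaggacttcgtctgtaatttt

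The motif was searched in both orientations within 50 nucleotides of each cluster. It was near 1.59% of the A1dm clusters, 0.913% of the A1-HMW clusters and 0.13% of the A1 clusters, and near none of the other sites in the 5 genes. A1dm had 6 and 7 such clusters, A1-HMW had 7 and 7, and A1 had 6 and 12. The AGBL5 clusters are among those counted for A1dm and for A1-HMW replicate 1. A match is a description of the letters near a cluster and does not show which RNA was bound. The nearest A1 cluster on the same strand lay 13913 nucleotides away, in TMEM214.

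The FGF13 site lay deep inside an intron of a gene of 608052 nucleotides. It fell 86881 nucleotides after the start of the gene, in an intron of each of the 5 transcripts that span it, with 68163 nucleotides to the upstream exon and 278198 to the downstream exon in FGF13-204. The canonical FGF13 transcript begins further downstream. Its 20 bases were 70.0% purine with 4 T, and the longest purine run was 6 bases. The gene holds 478 runs of at least 12 purines on its sense strand, and none of them carried a cluster of any group. For A1 this follows from the choice of FGF13 as a gene without A1 clusters. The share of all runs with an A1dm or A1-HMW cluster is not given here. Of the 1126356 such runs in protein-coding genes, 0.627% carried an A1 cluster. A lack of A1 clusters was common for genes of this size, since 52.1% of the 827 protein-coding genes of 300 kb or more had none. RefSeq lists the microRNA gene MIR504 and other noncoding genes inside FGF13 on GRCh38, and their positions were not carried over to hg19. The nearest A1 cluster on the same strand lay 516023 nucleotides away, in MCF2.

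Both NAA15 clusters were exonic and nearly free of pyrimidines. NAA15 site 1, found in A1dm replicate 1, lay in the 5′ untranslated region in exon 1 of 20, from base 79 of the canonical transcript NAA15-201, and its last base was 175 nucleotides upstream of the first coding base. The site was 90.5% purine with a run of 16 and a single T. On the other strand lies the gene NDUFC1, which encodes a subunit of respiratory complex I and had no cluster at this place. NAA15 site 2, found in A1dm replicate 2, lay in coding exon 15 of 20 and was 90.0% purine, again with a run of 16. Of its 6 whole codons, 4 were AAA or AAG, which code for lysine, and 2 coded for aspartate. NAA15 holds 82 runs of at least 12 purines, of which these 2 carried A1dm clusters and none carried an A1-HMW or A1 cluster. The choice of the gene required A1dm clusters in both libraries and none in A1. Of all such runs in protein-coding genes 0.627% carried an A1 cluster, and the shares for A1dm and A1-HMW are not given here. The nearest A1 cluster on the same strand lay 1268877 nucleotides from site 1 and 1200133 from site 2.

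The position shared by both A1dm libraries and the position shared by both A1 libraries lay in different coding exons of HMGB2. The former was chosen for its lack of A1 clusters, so A1 clusters could only lie elsewhere in the gene. HMGB2 site 1, found in both A1dm libraries, lay in coding exon 3 of 5 and was 91.7% purine with a run of 20. HMGB2 site 2 lay in coding exon 5, the last exon, and was 93.9% purine with a run of 26. At site 2 the cluster was 32 nucleotides long in A1dm replicate 2, against 32 in A1 replicate 1 and 33 in A1 replicate 2, so this position was covered in 1 A1dm and both A1 libraries. The sites were 943 nucleotides apart in the gene and 288 apart in the spliced transcript HMGB2-201. Of the 8 codons in site 1, 5 were AAA or AAG for lysine and 2 coded for aspartate. Of the 11 codons in site 2, 9 were GAA or GAG for glutamate and 2 coded for aspartate. The gene holds 7 runs of at least 12 purines in 3057 nucleotides (2.29 per kb, the highest density of the 5 genes). Site 2 as a whole had 1 exact match in the genome, but its central 20 bases had 649, whereas the central 20 bases of site 1 had 1.

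In MCU the 3 groups lay at 3 separate positions. MCU site 1 was chosen for its lack of A1 clusters, so A1 clusters could only lie elsewhere in the gene. MCU site 1, found in both A1dm libraries, was 93.8% purine with a run of 26, and lay in intron 2 of 7 of the canonical transcript MCU-202, 123 nucleotides after exon 2. It began 131 nucleotides after the end of the transcript MCU-206, and the deposited annotation names a transcript end there. MCU site 3, found in A1-HMW replicate 1 only, lay 27317 nucleotides upstream of it in intron 1, was 90.5% purine, and was named after a neighboring gene in the deposited annotation. MCU site 2, with identical ends in both A1 libraries, lay a further 98863 nucleotides upstream, at 88.0% purine. It was in intron 1 of MCU-202 and in coding exon 2 of the transcript MCU-209. MCU holds 171 runs of at least 12 purines, and 1 carried an A1dm cluster, 1 an A1-HMW cluster and 1 an A1 cluster. Of all such runs in protein-coding genes 0.627% carried an A1 cluster, and the shares for the other groups are not given here. The run with A1dm clusters was part of the choice of the site.

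**Figure D3:**
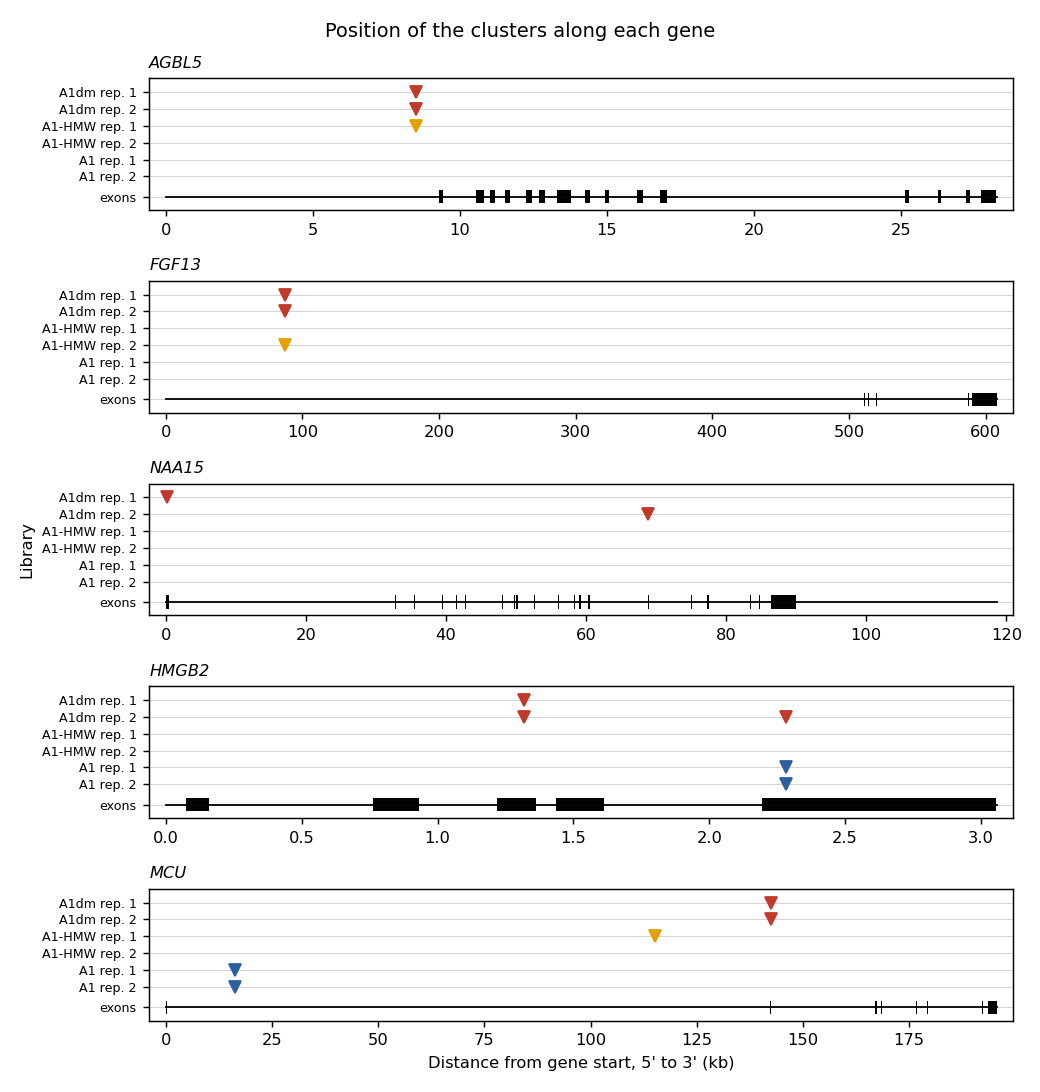
Clusters of each library (triangles) along each gene, in kb from the gene's start, 5′ to 3′, with the exons of the canonical transcript as black boxes. In HMGB2 and MCU the A1 triangles lie away from the site that both A1dm libraries share, as the choice of these sites requires. In NAA15 the A1dm triangles lie apart from each other.

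A run of at least 12 purines was present in 4 of the 6 sites, those in NAA15, HMGB2 and MCU, and absent from AGBL5 and FGF13. Among all A1dm clusters with a reference sequence 60.5% held such a run, and among the regions covered in both A1dm libraries 66.7% did. The purine share of the 6 sites had a median of 90.2% and ranged from 43.5 to 93.8%. The median cluster of the whole libraries was 90.5 and 87.5% purine in A1dm, 90.5 and 90.9% in A1-HMW, and 91.7 and 91.7% in A1. The NAA15, HMGB2 and MCU sites lay at 90.0 to 93.8%. The AGBL5 clusters, at 45.5% in both A1dm libraries, lay just above the 5th percentile of the A1dm clusters (45.0 and 41.2%), which in A1 was 85.7 and 85.0%. Of the regions in both A1dm libraries with a reference sequence, 12 purines in a row occurred in 2 of 8 without an A1 cluster (HMGB2 site 1 and MCU site 1), against 20 of 25 with an A1 cluster. The median purine share was 58.8% without and 91.3% with an A1 cluster. Overlap with A1 was also the contrast of the choice, and 4 of the 8 regions without it are sites described here. Of all A1 clusters with a sequence 98.1% in replicate 1 and 96.6% in replicate 2 held such a run. A difference between the 2 sets was therefore partly built in, and it is given as a description. All 6 sites had a single exact match in the genome over their full length, and 1.35% of the A1dm clusters had more than 1.

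**Figure D4:**
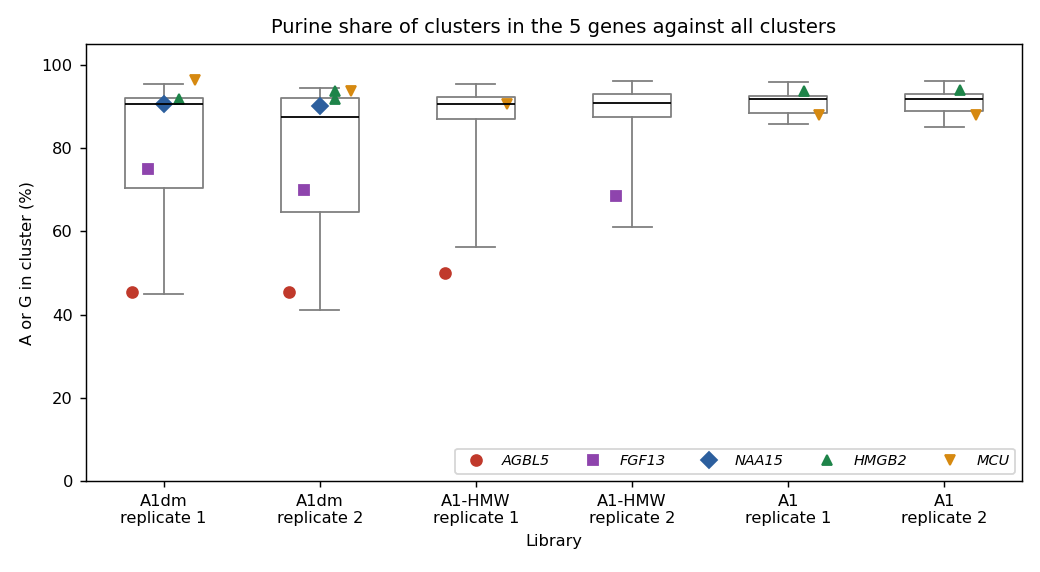
Percentage of A or G in the clusters of the 5 genes (symbols) for each library, over boxes of all clusters of that library (line, median; box, 25th to 75th percentile; whiskers, 5th to 95th percentile). The AGBL5 symbols are the lowest, from 45.5% upward, the FGF13 symbols follow from 68.4% upward, and all others lie at 88.0% or above.

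Relatives and partners of the 5 proteins had clusters about as often as protein-coding genes in general. Of 24 such genes, 6 had a cluster in any library, none of them in A1dm or A1-HMW and all 6 in A1. Of all protein-coding genes, 2.63% had an A1dm cluster, 4.25% an A1-HMW cluster, 20.7% an A1 cluster and 21.9% a cluster in any library. None of the 5 enzymes related to AGBL5 (AGBL1, AGBL2, AGBL3, AGBL4 and AGTPBP1) had a cluster. Of the FGF homologous factors, FGF11 and FGF12 had 1 intronic cluster each, in A1 replicate 1, and FGF14 had none. Of the NatA genes, the catalytic subunit NAA10 had 1 exonic cluster and the NAA15 paralog NAA16 had 1 intronic cluster, both in A1 replicate 2. HMGB1, a chromatin protein of the same family as HMGB2, had 1 cluster in A1 replicate 1 and 2 in A1 replicate 2, all intronic, and 1 position was common to both. These calls follow GENCODE. By the deposited gene names 5 of the 24 relatives had a cluster. FGF11 had none there, HMGB1 had 1, in A1 replicate 2, and the high mobility group gene HMGN1 had 1, in A1 replicate 1. The 7 clusters in the 5 relatives FGF11, FGF12, NAA10, NAA16 and HMGB1 all held a purine run of at least 13 bases. All were A1 clusters, and this was usual there. A run of at least 12 purines was held by 98.1% of all clusters with a sequence in A1 replicate 1 and 96.6% in replicate 2.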

How the data were processed

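PAR-CLIP was performed on 3 protein bands of HEK293T cells with 2 libraries each. The authors trimmed reads with BBduk, removed ribosomal RNA and mapped with STAR, and the submitters' processing notes name Bowtie and hg19. Per the file headers, the deposited lists are wavClusteR clusters of each library alone, annotated by HOMER with the Ensembl GRCh37.87 genes. Tool versions are not given in the sources used here. The deposited score was 0 in every line. The start in the identifier, 1 nucleotide before the listed start, was used, since every cluster with a sequence then held a T.

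Each cluster was given a gene of GENCODE 44 (hg19 lift) on its own strand, with exons preferred over introns and coding genes over noncoding ones. Clusters of AGBL5, FGF13 and NAA15 were taken from the gene intervals, and those of HMGB2 and MCU from the deposited gene name or the gene interval. Clusters that shared at least 1 nucleotide on the same strand formed a site. Mitochondrial clusters were given no sequence. Exact matches were counted on both strands of the assembled chromosomes. Code for overlaps was tested on simulated data. The genes named were the 5 genes, relatives with a cluster, up to 5 genes of the most similar pattern and genes at a site, and all 5 AGBL5 relatives, FGF14 and the nearest genes were named besides. One relative with a cluster is counted but not reported here. The genes and lists were chosen with earlier results of these data known. Python 3.11.15, pandas 2.3.3 and pysam 0.24.0 were used.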

Additional observations from a re-analysis of the deposited data

How the results depend on the processing

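The 8 results were recomputed under 41 alternatives. Of these, 17 changed the start, the overlap, the distance, the strand, the run length, the matched bases or the source of gene names, and all 17 stayed within 1.5 times of the reported counts or within 1 SD of the purine share. Leaving out 1 library at a time, the number of sites with an A1-HMW cluster ranged from 1 to 2, the A1 and A1-HMW clusters elsewhere in the 5 genes from 3 to 5, and the related genes with a cluster from 3 (without A1 replicate 2) to 6. Regions in both A1dm libraries without an A1 cluster numbered 9, against 11 without A1 replicate 2 and 13 without A1 replicate 1. With 1 A1dm library alone all its regions count, which gave 327 without replicate 1 and 96 without replicate 2, so the whole range was 9 to 327. The paper describes 2 independent experiments, each with RNA from all 3 bands, and found A1-HMW as a further band in the WT precipitate. The labels number the libraries of each band 1 and 2, and whether equal numbers mark a shared experiment was not tested. No paired analysis was possible because the lists give no quantity per cluster and no result comes from a test. Without read numbers in the lists used, weakly covered clusters were not told from strong ones.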
